A study of Mus musculus with 32 samples.

Results

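The 10 genes described here bring long-chain fatty acids into the intestinal cell, carry them through the cytosol and convert them to acyl-CoA, and their levels were followed across mouse intestinal stem cells and progenitors. They were taken by symbol: Cd36, Slc27a2 and Slc27a4 for uptake, Fabp1, Fabp2 and Fabp5 for binding, and Acsl1, Acsl3, Acsl4 and Acsl5 for activation. These are 10 of the 50686 genes in the deposited tables, each matched to 1 Ensembl identifier, and all 10 passed the filter on low counts in every model. The study sequenced polyA RNA from sorted crypt cells of C57BL6 mice in 8 groups of 4 libraries, 32 libraries in all. In Cpt1a knockout (KO) mice the floxed allele Cpt1afl/fl was combined with Villin-CreER and with Lgr5-GFP-IRES-CreER. Wild-type (WT) mice carried Villin-CreER and Lgr5-GFP-IRES-CreER without the floxed allele, so that both genotypes had the same pair of tamoxifen-inducible Cre drivers and the Lgr5 reporter. Villin-CreER acts throughout the intestinal epithelium, stem cells and progenitors included. Each genotype was fed the diet labelled High Fat (HF) or the one labelled High Fat Control (HFC). Stem cells were the cells high for Lgr5-eGFP and progenitors the cells low for it, and both gates took EpCAM+ cells with low or no CD24 that were CD31-, Ter119-, CD45- and 7AAD-. Age, time on diet and tamoxifen dosing are not given in the sources used here. The labels list 2 female and 2 male libraries in each group. They do not say whether the libraries of a group came from separate mice, nor whether stem cells and progenitors were taken from the same mice, so the p-values measure the spread between libraries. Libraries of a group are called a to d in column order, letters that only name a library. In all 8 groups Xist exceeded Ddx3y in libraries a and b and the reverse held in c and d, so the letters line up with sex across groups.

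Long-chain fatty acids are amphipathic and do not stay free inside a cell. CD36, a scavenger receptor of the plasma membrane, and the SLC27 family of fatty acid transport proteins favour their entry. Cytosolic fatty acid binding proteins then keep them in solution, and long-chain acyl-CoA synthetases attach coenzyme A, which traps the fatty acid in the cell and commits it to membrane lipids, triglyceride or oxidation. CPT1A, the enzyme deleted here, acts after this step and moves the acyl group from coenzyme A to carnitine at the mitochondrial outer membrane. In the small intestine absorptive enterocytes use these proteins to take up dietary fat, and several of the genes are known targets of the fatty acid-activated PPAR nuclear receptors.

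Libraries held between 3307711 and 7337425 assigned counts, with a median of 5655066.5. Cpt1a lay between 18.8 and 30.6 CPM (read counts scaled by library size) in the 16 KO libraries, against 119 to 347 CPM in the 16 WT libraries. Lgr5 was higher in stem cells than in progenitors by 3.57 ± 0.21 on the log2 scale (SE), and Epcam lay between 1904 and 2762 CPM in every library. The CPM scale used TMM (trimmed mean of M-values) factors over the 32 libraries. Of markers of the cells gated out, 10 white cell genes summed to 6.78 to 35.9 CPM a library, of which Itgam reached 34.3 CPM and Ptprc, which encodes CD45, at most 0.614 CPM. The sum of 6 red cell genes ran between 0 and 10.5 CPM, and Pecam1, which encodes CD31, reached at most 0.979 CPM. In RNA from sorted populations, fewer cells of a type and less RNA per cell cannot be told apart.

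Across the diet and genotype comparisons the genes moved unevenly. Fabp1, the liver-type fatty acid binding protein, changed by the widest margin, Acsl3 rose in KO cells on the HF diet, and Slc27a4 rose with the HF diet in WT progenitors. The other 7 genes, Cd36, Slc27a2, Fabp2, Fabp5, Acsl1, Acsl4 and Acsl5, passed the test in none of the 8 diet and genotype comparisons. The test was the quasi-likelihood test of edgeR, fitted to the 16 libraries of a population, with Benjamini-Hochberg adjustment over all genes tested and a threshold of 0.05. Of the 8 fits that each left out 1 library, the Slc27a4 call held in 2, and that of Acsl3 in progenitors in 3. The Fabp1 call held in 8 for diet in WT stem cells, in 5 for diet in KO stem cells and in 2 for genotype on HFC in stem cells. The Acsl3 call in stem cells held in 8. An adjusted p in the text below is of this test unless another tool is named. Where groups are said not to overlap, this describes their libraries and is not a test. The share of all genes without overlap is not given here for any comparison.

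**Figure D1:**
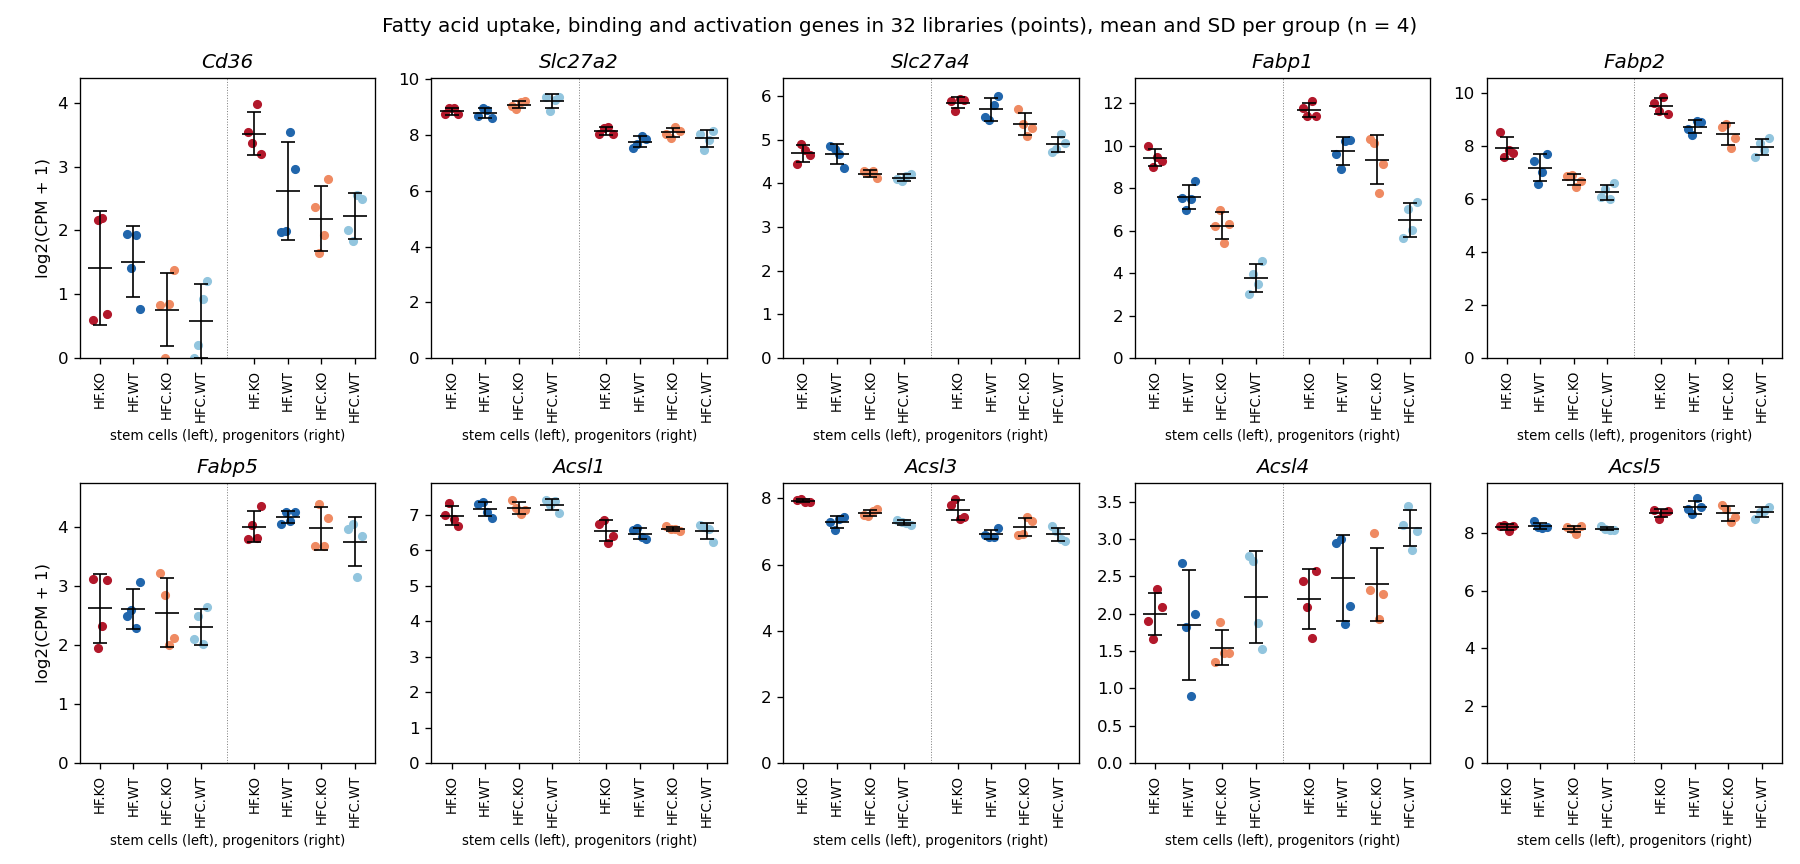
Level of each of the 10 genes in each of the 32 libraries as log2(CPM + 1), with stem cells on the left and progenitors on the right of each panel and groups in the order HF KO, HF WT, HFC KO and HFC WT. Points are libraries and bars the mean ± SD of 4 on that scale. Fabp1 spans the widest range, from 7.12 to 4319.9 CPM, while Acsl5 stays between 250.1 and 587 CPM.

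In stem cells, 1 of the 10 genes was called between HF WT and HFC WT, where 0.25% of the 12409 genes tested were called. The gene was Fabp1, and 7 of the 10 log2 fold changes were positive, with a median of 0.24 against 0.01 over all genes. Cd36 (1.76 ± 0.86) is among the positive ones, and it passed the filter in stem cells only through HF libraries. The count and the median are therefore not independent of the filter. Between HF KO and HFC KO stem cells 1 gene was called, again Fabp1, against a background of 0.0645%. The median was 0.44 against 0.01 over all genes, and it includes Cd36 (1.39 ± 0.83) with the same limit. For Cpt1a loss on the HF diet, HF KO against HF WT stem cells, 1 gene was called, Acsl3, against a background of 0.443%. The median of the 10 log2 fold changes there was 0.05, against 0 over all genes. Between HFC KO and HFC WT stem cells the 1 gene called was Fabp1, against a background of 0.242%, with a median of 0.19 over the 10 genes and 0 over all genes.

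In progenitors, 1 of the 10 genes was called between HF WT and HFC WT, Slc27a4, where 0.0883% of the 12460 genes tested were called. Between HF KO and HFC KO progenitors 0 of 10 were called by edgeR against a background of 0.313%. Of the 10, 5 had an unadjusted p under 0.05 (Cd36, Slc27a4, Fabp1, Fabp2 and Acsl3), beside 9.77% of all genes. DESeq2 called 3 of the 10 there beside 118 of all genes, and limma on log2(TPM + 1) called 2 of the 10. Between HF KO and HF WT progenitors 1 was called, Acsl3, against a background of 0.706%. Between HFC KO and HFC WT progenitors 0 were called by edgeR against a background of 0.257%. Of the 10, 4 had an unadjusted p under 0.05 (Slc27a4, Fabp1, Fabp2 and Acsl4), beside 5.8% of all genes. DESeq2 called 1 of the 10 there beside 83 of all genes, and limma called 1 of the 10. The limma counts over all genes for diet in KO and genotype on HFC in progenitors are not given here. The median log2 fold change of the 10 genes lay between 0.21 and 0.28 in these 4 comparisons, where that of all genes was 0 or 0.01.

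**Figure D2:**
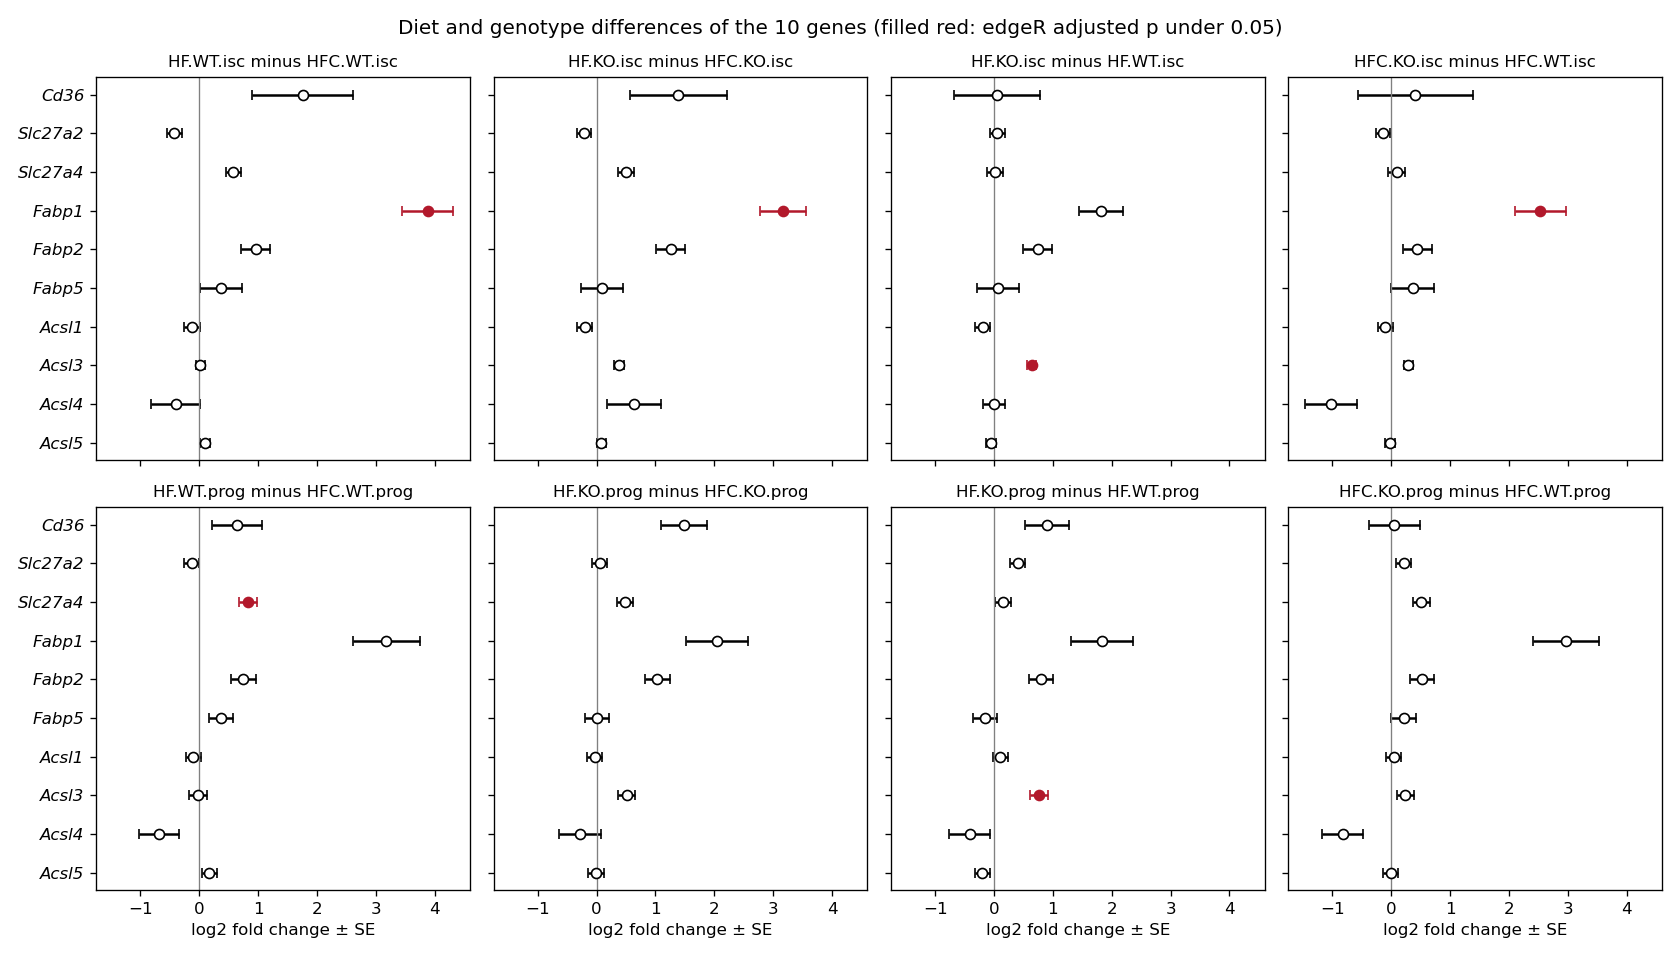
Log2 fold change ± SE of the 10 genes in the 8 diet and genotype comparisons, 4 libraries a group, with filled red points for an adjusted p under 0.05 (edgeR) and open points otherwise. Fabp1 lies between 1.82 and 3.88 in every panel, and the other 9 genes lie nearer 0.

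Of the uptake genes, Slc27a2 was the most abundant. It encodes FATP2, which is both a transporter and a very-long-chain acyl-CoA synthetase (ENSMUSG00000027359; GRCm38 chr2:126552407-126588243, plus strand). Per length, its median level was 457 TPM (the length-scaled level of the deposited table) in stem cells and 185 TPM in progenitors, which made up between 88.1% and 98.6% of the summed TPM of the 3 uptake genes in the group means. Its count level was 464 ± 40.5 CPM in HF KO stem cells and 446 ± 52.9 CPM in HF WT stem cells, against 546 ± 50.4 CPM in HFC KO and 596 ± 93.4 CPM in HFC WT stem cells (SD, n = 4 each). HF WT libraries a to d stood at 413, 501, 480.3 and 390.5 CPM, and HFC WT libraries at 654, 459, 614 and 657 CPM. The groups overlapped through HFC WT library b, and the log2 fold change of -0.42 ± 0.12 was not called (adjusted p = 0.155), although DESeq2 did call it. In progenitors Slc27a2 was at 262, 302, 313 and 261 CPM in the 4 HF KO libraries, against 185, 203, 250.1 and 231 CPM in HF WT libraries. All 4 HF KO values lay above the HF WT ones, and the log2 fold change of 0.40 ± 0.13 did not pass (adjusted p = 0.244).

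Slc27a4 encodes FATP4, a transport protein of the enterocyte with acyl-CoA synthetase activity (ENSMUSG00000059316; chr2:29802634-29817522, plus strand). It rose with the HF diet in WT progenitors. Its 4 HF WT progenitor libraries held 44.9, 42.4, 54.7 and 62.8 CPM, against 25.3, 26.6, 33.9 and 29.3 CPM in HFC WT progenitors. The groups did not overlap, and the level was 1.78-fold higher (log2 fold change 0.83 ± 0.15, adjusted p = 0.0327). The call ended when HFC WT library a, b, c or d was left out, with adjusted p of 0.17, 0.109, 0.0705 and 0.101, and when HF WT library c or d was left out, with 0.111 and 0.113. It also ended in a fit on those groups alone (adjusted p = 0.0847), with limma (adjusted p = 0.0534), and with the mean level of 20 enterocyte markers as a covariate (0.58 ± 0.13, adjusted p = 0.276). In the same libraries the 10 Paneth cell markers summed to 14656 to 25171 CPM in HF WT progenitors, against 6196 to 15981 CPM in HFC WT progenitors, with a median log2 fold change of 1.03 and 0 of 10 called. The 10 enteroendocrine markers summed to 1219.8 to 1779 CPM in HF WT progenitors, against 792 to 1221 CPM in HFC WT progenitors, with a median of 0.57 and 0 of 10 called. The part of these 2 lists in the Slc27a4 result was not tested.

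In the other diet comparisons Slc27a4 shifted the same way without passing the test. Stem cells of HF WT mice held 28.1, 26.5, 24.3 and 19.4 CPM, against 16.1, 15.5, 17 and 17.5 CPM in HFC WT stem cells, with no overlap (log2 fold change 0.58 ± 0.13, adjusted p = 0.072). DESeq2 called this difference (adjusted p = 0.0164). HF KO stem cells held 20.6, 28.9, 26 and 24.1 CPM, against 18.4, 17.7, 18.3 and 16.3 CPM in HFC KO stem cells, again with no overlap (0.50 ± 0.13, adjusted p = 0.337). HF KO progenitors averaged 56.5 ± 4.76 CPM and HFC KO progenitors 40.3 ± 7.45 CPM (0.48 ± 0.14, adjusted p = 0.222). Genotype differences were small on the HF diet, with log2 fold changes of 0.02 ± 0.13 in stem cells and 0.15 ± 0.14 in progenitors. On the HFC diet the KO progenitors averaged 40.3 ± 7.45 CPM and the WT progenitors 28.8 ± 3.84 CPM (SD, n = 4 each; 0.51 ± 0.15, adjusted p = 0.293).

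Cd36 was rare in these cells (ENSMUSG00000002944; chr5:17781690-17888801, minus strand), with 0 to 74 counts a library and a median of 0.565 TPM in stem cells and 2.73 TPM in progenitors. In stem cells HF WT libraries held 2.85, 1.65, 2.8 and 0.705 CPM and HFC WT libraries 0, 0.153, 0.893 and 1.31 CPM, which overlap (log2 fold change 1.76 ± 0.86, adjusted p = 0.444). HF KO stem cells held 0.514, 3.5, 3.59 and 0.614 CPM, and HFC KO stem cells 0.775, 0, 0.797 and 1.59 CPM, which overlap too. HFC stem cell libraries reached at most 1.59 CPM, below the level the filter on low counts asks for. Cd36 therefore passed the filter in stem cells only through HF libraries, and its diet tests there are not independent of the filter. In progenitors the HF KO libraries held 10.6, 9.3, 14.7 and 8.14 CPM, against 4.13, 2.12, 2.79 and 6.01 CPM in HFC KO libraries. All HF KO values lay above the HFC KO ones, and the log2 fold change of 1.49 ± 0.39 was not called by edgeR (adjusted p = 0.143) but was by DESeq2 (adjusted p = 0.0338). Cd36 also marks capillary endothelium and fat cells. A list of 15 endothelial, fat cell and stromal markers summed to 11.2 to 17.1 CPM in HF KO progenitors, against 5.23 to 15.8 CPM in HFC KO progenitors. In both groups 14 of the 15 averaged under 1 CPM. The exception was Cidec, a lipid droplet gene, with a median of 6.02 CPM and a maximum of 16.9 CPM over the 32 libraries. Vwf reached 1.99 CPM, while the capillary gene Gpihbp1 and the fat cell gene Adipoq had 0 counts in all 32. The part of these markers in the Cd36 values was not tested.

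Fabp1 showed the widest differences in every diet and genotype comparison (ENSMUSG00000054422; chr6:71199827-71205023, plus strand). It encodes a small cytosolic protein that binds long-chain fatty acids and other lipids in liver and proximal intestine, and it is an established PPAR target. Its promoter is shown because the rat gene is known to carry a PPAR response element there, a direct repeat of the receptor core with a 1-base spacer (DR1). The 198 bases before the gene's Ensembl start, from the RefSeq promoter table (GRCm38.p6, chr6:71199629-71199826, plus strand, 5′ to 3′), are given with the closest match to the motif AGGTCANAGGTCA in capitals, read on either strand.
Fabp1 upstream: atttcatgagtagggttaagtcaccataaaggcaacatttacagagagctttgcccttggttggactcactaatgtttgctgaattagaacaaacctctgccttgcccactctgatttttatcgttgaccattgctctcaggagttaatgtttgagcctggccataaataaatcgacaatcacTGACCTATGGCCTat

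The match lies 67 to 55 bases before the RefSeq start and differs from the motif at 1 of its 12 fixed letters. The RefSeq start is 52 bases downstream of the Ensembl start, before which the printed stretch ends. Of the 32851 promoter windows of 300 bases in the table, 0.554% hold a match as close, and the mean window's best match has 3.91 mismatches. The closest matches of Fabp1, Cd36 and Fabp2 are set out here 5′ to 3′ on each gene's own strand, with matching letters in capitals and mismatches in lower case. They were picked because their HF KO and HFC KO progenitor libraries did not overlap. edgeR called none of them in that comparison, and the share of all genes without overlap is not given here. Cd36 was read in the window chr5:17835847-17836146 (minus strand) and Fabp2 in chr3:122894822-122895121 (plus strand), both GRCm38.p6. The Ensembl gene of Cd36 starts at 17888801 on the minus strand. Its window therefore lies inside the counted gene, far downstream of the Ensembl start.
Fabp1 site: TGACCTATGgCCT
Cd36 site: TGgCCTCTGACtT
Fabp2 site: TGcaCTTTGAaCT
The Cd36 site, 63 to 51 bases before the RefSeq start, had 2 mismatches, and 3.86% of windows had as few. The Fabp2 site, 137 to 125 bases before it, had 3, and 24.6% of windows had as few. Slc27a2, Acsl4 and Acsl5 had a closest match of 3 mismatches as well. Slc27a4 and Acsl3, each called by edgeR in another diet or genotype comparison, had 5 mismatches, and 99.9% of windows had as few. Acsl1 had 5 and 4 in its 2 entries, and Fabp5 had no entry in the table. A match in letters is a description and does not show that a factor binds there.

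In WT stem cells Fabp1 rose with the HF diet. It stood at 184, 125, 178 and 318 CPM in HF WT libraries, against 7.12, 14.4, 10.4 and 22.6 CPM in HFC WT libraries. The lowest HF library was above the highest HFC library, and the level was 14.7-fold higher (log2 fold change 3.88 ± 0.43, adjusted p = 0.00267). It kept the call when any of the 8 libraries was left out, with adjusted p between 0.00275 and 0.0234, and lost it in a fit on these groups alone (adjusted p = 0.0637). In KO stem cells it rose as well. HF KO libraries held 993, 515, 699 and 623 CPM, against 72.9, 124, 41.8 and 79 CPM in HFC KO libraries, again with no overlap. That was 8.96-fold higher (3.16 ± 0.39, adjusted p = 0.013), and the call ended without HF KO library a (adjusted p = 0.0547), HFC KO library a (0.0714) or HFC KO library d (0.0914).

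Between genotypes Fabp1 was called in stem cells on the HFC diet and lay just outside the threshold on the HF diet. On the HFC diet KO stem cells averaged 79.3 ± 33.7 CPM and WT stem cells 13.6 ± 6.68 CPM (SD, n = 4 each), with no overlap, a 5.79-fold difference (2.53 ± 0.43, adjusted p = 0.0261). This call ended without HFC WT library a, b or c, with adjusted p of 0.0962, 0.0815 and 0.127, and without HFC KO library a, b or d, with 0.0667, 0.0831 and 0.0643. It also ended with no filter on low counts (0.0628), in the fit on the compared groups alone (0.186) and with the enterocyte covariate (0.0578). On the HF diet KO stem cells averaged 707 ± 205 CPM and WT stem cells 201 ± 82.1 CPM, 3.52-fold apart with no overlap, and the difference was not called (1.82 ± 0.37, adjusted p = 0.0607). It passed when HF WT library d, the highest WT value, was left out (adjusted p = 0.0229), and by DESeq2 (0.00257) and limma (0.0177).

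In progenitors Fabp1 had higher levels and wider spread, and none of its 4 comparisons passed. HF KO progenitors held 3422, 2697, 4319.9 and 2682 CPM, and HFC KO progenitors 1258, 1119.6, 218 and 554 CPM. HF WT progenitors held 774, 477, 1179 and 1243 CPM, and HFC WT progenitors 48.7, 128, 63.7 and 163 CPM. None of the 4 pairs of groups overlapped. The diet difference was 9.06-fold in WT progenitors (3.18 ± 0.57, adjusted p = 0.0764) and 4.15-fold in KO progenitors (2.05 ± 0.53, adjusted p = 0.189). The genotype difference, KO over WT, was 3.59-fold on the HF diet (1.84 ± 0.53, adjusted p = 0.191) and 7.84-fold on the HFC diet (2.97 ± 0.56, adjusted p = 0.0576). Without HFC KO library c, the lowest of its group, that last difference passed (3.28, adjusted p = 0.0109). DESeq2 called all 4 of these, with adjusted p between 1.61e-07 and 0.0119. limma called diet in WT (0.0203), diet in KO (0.0499) and genotype on HFC (0.0137) but not genotype on HF (0.0849).

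Markers of differentiated cells were read beside Fabp1. The 20 enterocyte markers summed to 1350.2 to 2073 CPM in HF WT stem cells, against 1355 to 1665 CPM in HFC WT stem cells, with a median log2 fold change of 0.56 and 1 of 20 called higher. The 11 goblet cell markers summed to 894 to 1055 CPM in HF WT stem cells, against 305 to 599 CPM in HFC WT stem cells, with a median of 0.99 and 2 of 11 called higher. Paneth cell markers summed to 1492 to 2694 CPM in HF WT stem cells, against 221 to 2555 CPM in HFC WT stem cells, and enteroendocrine markers to 48.5 to 110.3 CPM in HF WT, against 15.9 to 60.4 CPM in HFC WT stem cells. Secretory markers also stood higher in KO stem cells on the HF diet, with 0 called in any of these lists. Goblet cell markers summed to 634 to 1009 CPM in HF KO stem cells, against 373 to 721 CPM in HFC KO stem cells. Paneth cell markers averaged a sum of 1669 CPM in HF KO, against 744 CPM in HFC KO, with overlap, and enteroendocrine markers summed to 43.5 to 85.7 CPM in HF KO, against 12.2 to 38.6 CPM in HFC KO stem cells, the last without overlap. In HF KO progenitors the Paneth cell sum was 14675 to 25789 CPM, against 3945 to 13255 CPM in HFC KO progenitors. The part of these secretory markers in the Fabp1 values was not tested. Between genotypes on the HFC diet the enterocyte markers summed to 1336 to 1476 CPM in KO stem cells, against 1355 to 1665 CPM in WT stem cells. With the mean of the enterocyte markers as a covariate the Fabp1 log2 fold change was 4.14 for diet in WT stem cells (adjusted p = 0.0152) and 3.33 for diet in KO stem cells (adjusted p = 0.0172).

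In order of group means, Fabp1 was lowest in HFC WT stem cells at 13.6 CPM, followed by HFC KO stem cells, HFC WT progenitors at 101 ± 53.8 CPM, HF WT stem cells, HF KO stem cells, HFC KO progenitors at 788 ± 487 CPM, HF WT progenitors at 918 ± 360.1 CPM and HF KO progenitors at 3280.4 ± 774 CPM. The highest mean was 241 times the lowest. HFC KO stem cells, HFC WT progenitors and HF WT stem cells overlapped with their neighbour in this order, as did HF KO stem cells, HFC KO progenitors and HF WT progenitors. HFC WT stem cells and HF KO progenitors stood clear of the others, as HF WT stem cells did of HF KO stem cells. HF WT stem cells, at 125 to 318 CPM, did overlap HFC KO progenitors, at 218 to 1258 CPM.

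Fabp2, the intestinal fatty acid binding protein (ENSMUSG00000023057; chr3:122895072-122899506, plus strand), shifted in the directions of Fabp1 by smaller amounts, and it passed in none of the 8 diet and genotype comparisons. HF KO progenitors held 792, 636, 920.3 and 591 CPM, against 415, 457, 242 and 317 CPM in HFC KO progenitors. The groups did not overlap, and the log2 fold change of 1.03 ± 0.21 lay just outside the threshold (adjusted p = 0.0537). It passed without HFC KO library b (0.0366) or HF KO library d (0.0498), and also by DESeq2 (5.75e-05), by limma (0.0205) and with the enterocyte covariate (0.000134). HF KO progenitors also lay above HF WT progenitors, at 394, 338, 487 and 477 CPM, without overlap (0.80 ± 0.21, adjusted p = 0.113).

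In stem cells Fabp2 stood at 368, 192, 226 and 211 CPM in HF KO libraries and 115, 119, 86.6 and 101 CPM in HFC KO libraries. All HF values lay above all HFC values (1.26 ± 0.25, adjusted p = 0.0986), and limma called the difference (0.0321). HF WT stem cells averaged 149.9 ± 50.3 CPM and HFC WT stem cells 76.8 ± 15.4 CPM, and these groups overlapped (0.96 ± 0.25, adjusted p = 0.131). For diet in WT progenitors, at 424 ± 70.8 CPM on HF and 251 ± 53.3 CPM on HFC, the log2 fold change was 0.75 ± 0.21 (adjusted p = 0.398). For genotype on the HFC diet it was 0.44 ± 0.25 in stem cells (adjusted p = 1) and 0.52 ± 0.21 in progenitors (adjusted p = 0.763).

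Fabp5, the epidermal fatty acid binding protein (ENSMUSG00000027533; chr3:10012548-10016607, plus strand), was scarce, with 15 to 113 counts a library. Its level lay between 2.84 and 8.33 CPM in stem cells and between 7.83 and 19.9 CPM in progenitors. The 8 diet and genotype log2 fold changes ran from -0.15 to 0.37, and none passed. Its value is uncertain because 5 Fabp5-like copies match its transcript at 93.6% to 98.3% identity. The most counted of these, Gm6166, held at most 34 counts in a library.

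The makeup of the binding proteins differed among the groups, on the TPM scale. Fabp1 made up 83.4 ± 0.91% of the summed TPM of the 3 genes in HF KO stem cells, 69.7 ± 3.15% in HF WT, 54.8 ± 7.9% in HFC KO and 22.4 ± 5.4% in HFC WT stem cells (SD, n = 4 each). In progenitors its share was 88.7 ± 0.48% in HF KO, 77.7 ± 5.04% in HF WT, 75.2 ± 10.3% in HFC KO and 38.7 ± 8.52% in HFC WT. Fabp2 held the largest share, 74 ± 5.2% in stem cells and 58.4% in progenitors, in HFC WT mice alone among the 4 states. The summed level of the 3 genes averaged 2671 TPM in HF KO, 911 TPM in HF WT, 451 TPM in HFC KO and 195 TPM in HFC WT stem cells. In progenitors it averaged 9769 TPM in HF KO, 3015 TPM in HF WT, 2623 TPM in HFC KO and 654 TPM in HFC WT.

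**Figure D3:**
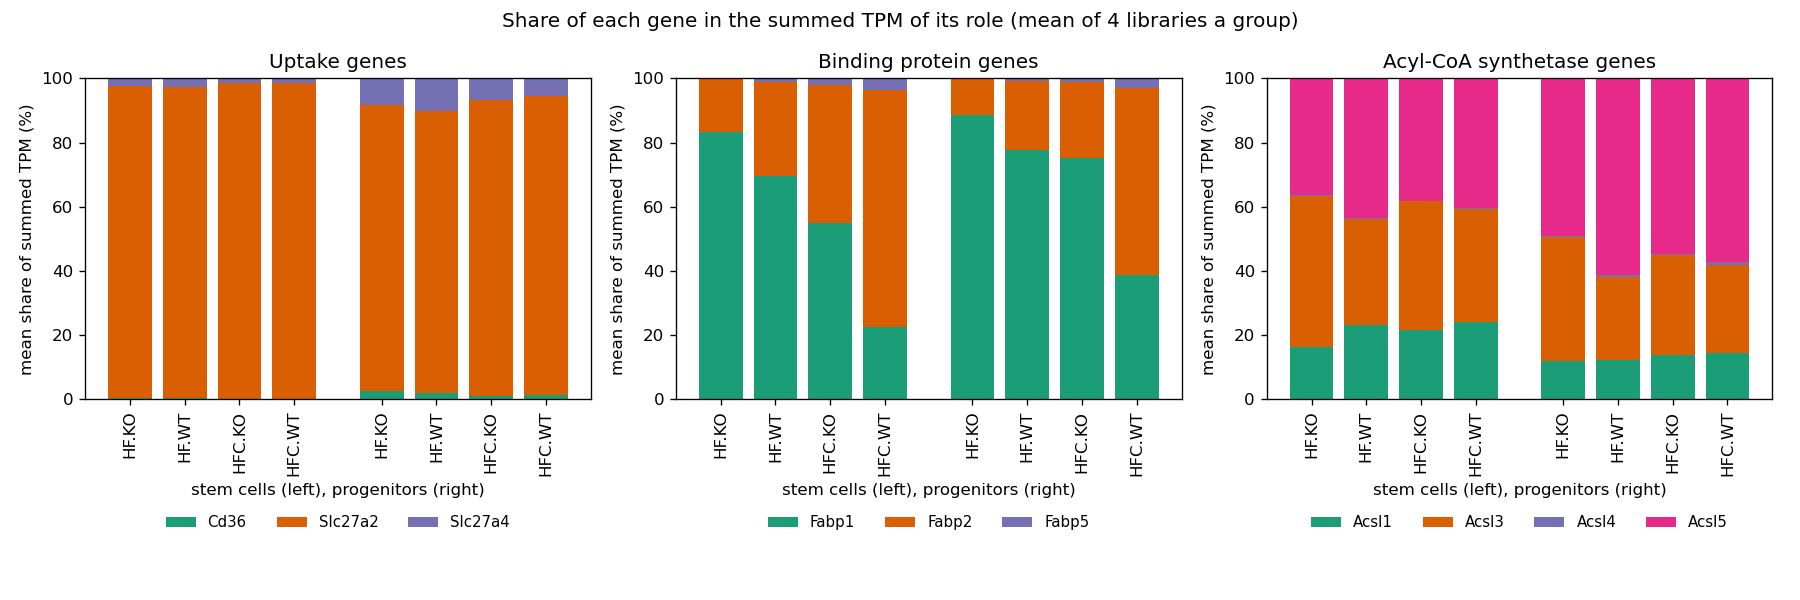
Mean TPM share, in percent, of each gene in the summed TPM of the uptake, binding and acyl-CoA synthetase genes, for each of the 8 groups (n = 4 libraries). Slc27a2 fills most of the uptake bar in every group, the Fabp1 share of the binding bar runs from 22.4% in HFC WT stem cells to 88.7% in HF KO progenitors, and Acsl3 takes its largest share, 47.2%, in HF KO stem cells.

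Of the activation genes, Acsl3 changed. It encodes an acyl-CoA synthetase of the endoplasmic reticulum and lipid droplets (ENSMUSG00000032883; chr1:78657825-78707743, plus strand). In HF KO stem cells it stood at 247, 253, 238 and 237 CPM, against 154, 132, 165 and 173 CPM in HF WT stem cells. The KO libraries lay closely together and above all WT libraries, 1.56-fold higher (0.64 ± 0.08, adjusted p = 0.0012). The call held without any 1 of the 8 libraries, with adjusted p between 0.000491 and 0.00867, and by DESeq2 (8.23e-11), and it was not made by limma (0.0713). In progenitors HF KO libraries held 224, 250.2, 167 and 171 CPM, against 117, 114, 112 and 137 CPM in HF WT libraries. All KO values were higher, by 1.7-fold (0.77 ± 0.15, adjusted p = 0.0251). That call ended without HF KO library a or b (0.0958 and 0.107), without HF WT library a, b or c (0.11, 0.0814 and 0.086), with limma (0.0939) and with the enterocyte covariate (0.57 ± 0.14, adjusted p = 0.108). Summed enterocyte markers ranged over 2056 to 2971 CPM in HF KO progenitors and 2433 to 5532 CPM in HF WT progenitors, with a median log2 fold change of -0.51 over the list and 0 of 20 called.

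On the HFC diet the Acsl3 difference between genotypes was not called. KO stem cells held 181, 176, 196 and 203 CPM, against 162, 155, 152 and 145 CPM in WT stem cells, without overlap (0.29 ± 0.08, adjusted p = 0.417). In progenitors the values were 118, 121, 172 and 159 CPM in HFC KO and 142, 128, 108 and 105 CPM in HFC WT libraries, which overlapped (0.24 ± 0.15, adjusted p = 0.914). The diet made a log2 difference of 0.02 ± 0.08 in WT stem cells and -0.02 ± 0.15 in WT progenitors. In KO cells it made a difference of 0.38 ± 0.08 in stem cells, where the groups did not overlap (adjusted p = 0.132), and 0.51 ± 0.15 in progenitors (adjusted p = 0.243). The test of whether the diet difference depended on genotype gave an interaction of 0.36 ± 0.12 in stem cells (unadjusted p = 0.00808, adjusted p = 0.999) and 0.53 ± 0.21 in progenitors (unadjusted p = 0.0253, adjusted p = 0.969). Acsl3 overlaps Utp14b on the same strand over 13475 bases, and Utp14b held at most 76 counts in a library.

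Acsl5, the mitochondrial and endoplasmic reticulum synthetase abundant in intestinal epithelium (ENSMUSG00000024981; chr19:55251938-55297720, plus strand), had the smallest ratio of its highest to its lowest group mean among the 10 genes, 1.7. It averaged 295 ± 19.7 CPM in HF KO, 305 ± 23.9 CPM in HF WT, 282 ± 22.1 CPM in HFC KO and 283 ± 11.8 CPM in HFC WT stem cells. In progenitors it averaged 414 ± 37.8 CPM in HF KO, 479 ± 78.3 CPM in HF WT, 416 ± 75.1 CPM in HFC KO and 423 ± 48 CPM in HFC WT (SD, n = 4 each). Its 8 log2 fold changes ran from -0.20 to 0.17. Acsl5 shares 26430 bases with Zdhhc6 on the opposite strand, which held up to 1543 counts in a library, and the strand setting of the counting is not given in the sources used here, so reads of the pair may not be told apart.

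Acsl1, a synthetase of the outer mitochondrial membrane and endoplasmic reticulum (ENSMUSG00000018796; chr8:46471037-46536051, plus strand), had log2 fold changes between -0.20 and 0.11. Its means were 127 ± 24.1 CPM in HF KO, 144 ± 20.6 CPM in HF WT, 147 ± 17.6 CPM in HFC KO and 156 ± 16.6 CPM in HFC WT stem cells. In progenitors they were 94.5 ± 19.4 CPM in HF KO, 88.3 ± 9.77 CPM in HF WT, 96.3 ± 3.95 CPM in HFC KO and 94 ± 14 CPM in HFC WT. Acsl4, which prefers arachidonate and other polyunsaturated fatty acids (ENSMUSG00000031278; chrX:142317993-142390535, minus strand), had 4 to 54 counts a library. On the HFC diet it held 1.55, 2.69, 1.79 and 1.77 CPM in KO stem cells and 5.84, 5.51, 2.68 and 1.87 CPM in WT stem cells, which overlapped (-1.02 ± 0.44, adjusted p = 0.983). KO progenitors held 3.98, 7.41, 2.79 and 3.78 CPM and WT progenitors 8.12, 9.83, 6.2 and 7.61 CPM, which overlapped too (-0.83 ± 0.34, adjusted p = 0.756).

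Per length, Acsl5 and Acsl3 made up most of the summed TPM of the 4 synthetases. Acsl3 held 47.2 ± 2.46% in HF KO stem cells and 33.1 ± 6.82% in HF WT stem cells, and 38.5 ± 4.38% in HF KO progenitors and 26.1 ± 3.01% in HF WT progenitors. On the HFC diet its share was 40.3 ± 4.77% in KO and 35.3 ± 2.41% in WT stem cells, and 31 ± 7.72% in KO and 27.6 ± 2.94% in WT progenitors. The summed level of the 4 genes differed little among groups, with means between 326 and 432 TPM.

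The interaction of diet and genotype was called for 0 of 10 genes in stem cells and for 0 of 10 in progenitors, where 0% of all genes tested were called in each. At an unadjusted p under 0.05, 1 of the 10 genes passed in each population, Acsl3 both times, as did 444 genes of all in stem cells and 561 in progenitors, and DESeq2 and limma called 0 of the 10. For Fabp1, whose genotype difference was numerically larger on the HFC diet, the interaction was -0.72 ± 0.55 in stem cells (adjusted p = 0.999) and -1.13 ± 0.74 in progenitors (adjusted p = 0.969). Whether a diet or genotype difference was unlike in stem cells and progenitors was tested in a joint fit of the 32 libraries. For diet in WT, diet in KO, genotype on HF and genotype on HFC, 0 of 10 genes were called each time, and 0%, 0%, 0% and 0% of the 13088 genes tested. None of the 10 had an unadjusted p under 0.05 in any of these 4 tests, and DESeq2 and limma called none of them either. Over all genes 423, 387, 331 and 263 had an unadjusted p under 0.05 in those tests.

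All 10 genes differed between stem cells and progenitors, averaged over the 4 states of diet and genotype, where 63.5% of the 13088 genes tested were called. Slc27a2, Acsl1 and Acsl3 were higher in stem cells and the other 7 were lower, with a median log2 fold change of -0.92 against 0.02 over all genes. Of the uptake genes, Slc27a2 was higher by 1.02 ± 0.06 (adjusted p = 1.91e-14), while Slc27a4 was lower by a log2 fold change of -1.05 ± 0.07 (3.93e-14) and Cd36 by -2.19 ± 0.32 (8.47e-07). The 3 binding protein genes were lower in stem cells, Fabp1 at -2.65 ± 0.25 (8.58e-10), Fabp2 at -1.63 ± 0.12 (3.82e-12) and Fabp5 at -1.59 ± 0.15 (8.24e-11). The synthetases were divided. Acsl1 was higher in stem cells by 0.62 ± 0.07 (3.94e-09) and Acsl3 by 0.35 ± 0.06 (1.26e-05), while Acsl5 was at -0.57 ± 0.06 (2.5e-10) and Acsl4 at -0.79 ± 0.20 (0.00116).

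The gate also split the absorptive lineage. Of the 20 enterocyte markers, 3 were higher and 15 lower in stem cells, with a median log2 fold change of -1.19, and their summed level lay between 1307 and 2073 CPM in stem cell libraries and between 1987 and 5532 CPM in progenitor libraries. With the markers' mean as a covariate, 7 of the 10 genes were called between stem cells and progenitors, beside 3444 of the 13088 genes tested. The calls that ended were those of Cd36 (-0.25 ± 0.64, adjusted p = 0.818), Acsl3 (0.09 ± 0.13, adjusted p = 0.656) and Acsl5 (-0.27 ± 0.12, adjusted p = 0.106). Without the covariate their SEs were 0.32, 0.06 and 0.06. Because the marker level largely follows the split into populations, this fit cannot separate enterocyte content from population. Among other marker lists, the sorted stem cells were higher for 12 of 12 crypt base genes and lower for 11 of 11 goblet cell and 10 of 10 Paneth cell genes.

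**Figure D4:**
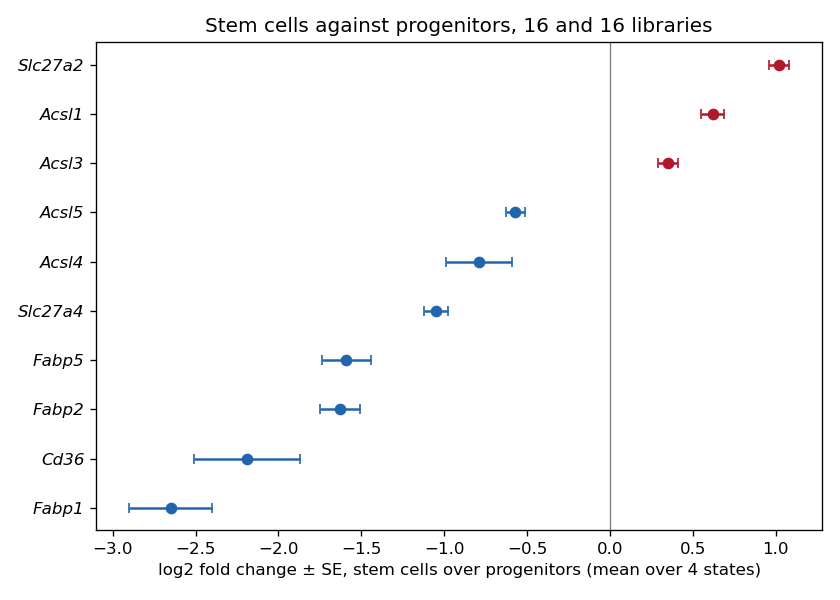
Log2 fold change ± SE of stem cells over progenitors for the 10 genes, averaged over the 4 states of diet and genotype (16 libraries a population). Slc27a2, Acsl1 and Acsl3 lie above 0 and the other 7 below, with Fabp1 lowest at -2.65.

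A list of 28 other genes of uptake, binding and activation was set beside the 10. Of these, 17 were tested in stem cells and 19 in progenitors, and 1 passed in any diet or genotype comparison. That was Fabp6, the ileal bile acid binding protein, which fell in HF KO progenitors to 0.672 ± 0.333 CPM, against 5.37 ± 2.31 CPM in HFC KO progenitors (-2.95 ± 0.59, adjusted p = 0.0418). HF KO progenitors reached at most 0.945 CPM, near the floor and below the level the filter on low counts asks for. Fabp6 passed the filter through other groups, HFC WT (2.47 to 9.47 CPM) and HFC KO (2.09 to 7.22 CPM) progenitors among them. Its test is therefore not independent of the filter. Between stem cells and progenitors 6 of 19 were higher and 10 lower, where 63.5% of the 13088 genes tested were called. Those with the smallest adjusted p were the transport protein Slc27a1 (1.37 ± 0.08, 1.23e-14), the acetyl-CoA synthetase Acss2 (0.85 ± 0.06, 1.83e-13), the lysosomal membrane protein Scarb2 (-0.95 ± 0.07, 4.56e-13) and the medium-chain acyl-CoA synthetase Acsm3 (1.21 ± 0.09, 8.06e-13).

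The triglyceride synthesis genes, which use the acyl-CoA made by the synthetases, held 1 called member of 14 tested. Mogat2, the monoacylglycerol acyltransferase of fat absorption, rose to 21.5 ± 4.43 CPM in HF WT stem cells, against 11 ± 2.77 CPM in HFC WT stem cells (0.97 ± 0.19, adjusted p = 0.0409). In the comparison of stem cells with progenitors 4 were higher and 7 lower, against a background of 63.5% of all genes called. The lower ones included Mogat2 at -2.56 ± 0.14, Mttp, which loads lipid onto apolipoprotein B, at -1.60 ± 0.10, Agpat2 at -1.51 ± 0.10 and Dgat1 at -0.67 ± 0.06.

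Of 10 nuclear receptor and partner genes tested, 0 were called in any of the 8 diet and genotype comparisons by edgeR, and 9 of the 80 tests had an unadjusted p under 0.05 (of Hnf4g, Nr1h4, Ppard and Ppargc1a), beside 7.59% of the 99476 tests of all genes. Between stem cells and progenitors the receptors Hnf4a (0.26 ± 0.04) and Rxrb (0.26 ± 0.06) were higher, while Hnf4g (-1.34 ± 0.10), Pparg (-0.72 ± 0.12), Nr1h4 (-0.70 ± 0.12), Ppara (-0.57 ± 0.13), Ppard (-0.55 ± 0.17) and the coactivator Ppargc1b (-0.28 ± 0.07) were lower. Of 19 other known PPAR targets tested, those called were all higher in the HF or KO group. In stem cells they numbered 5 for diet in WT, 3 for diet in KO, 10 for genotype on HF and 8 for genotype on HFC, and in progenitors 5 for diet in WT, 9 for diet in KO, 13 for genotype on HF and 12 for genotype on HFC. The list was drawn up with earlier results of these libraries known and is not independent evidence of that direction.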

How the data were processed

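Per the submitters' processing notes, the tools were RSEM 1.3.0, STAR 2.5.3a and SAMtools 1.3, with genome build mm10; strand setting and annotation version are not given in the sources used here. The authors deposited a table of expected counts, which holds whole numbers, and a table of log2 TPM. The deposited log2 values were taken back to TPM for shares. Symbols matched 50376 of 50686 identifiers. Members and lists were chosen with earlier results of these data known.

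Expected counts were fitted with edgeR 4.0.16 (R 4.3.3): TMM scaling, filterByExpr with a minimum count of 10, robust quasi-likelihood, one model for each population (16 libraries) and one joint model (32), Benjamini-Hochberg adjustment and a threshold of 0.05. The SE of a log2 fold change is its size divided by the square root of F. Alternatives were DESeq2 1.42.0, limma 3.58.1 on log2(TPM + 1), RLE scaling, no filter, the compared groups alone, an Xist minus Ddx3y covariate, an enterocyte marker covariate, and leaving out each library. The scripts were tested on simulated counts. All 10 members were named always; from the lists of uptake and triglyceride genes up to 4 called genes with the smallest adjusted p, and from the nuclear receptors any called. No 2 libraries held identical values.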

Additional observations from a re-analysis of the deposited data

Results flagged for a closer look

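In each of 80 sets of 4 libraries (10 genes in 8 groups) the highest and lowest library were compared with the others by Dixon's gap ratio, and 2 sets passed its 95% critical value for 4 samples. Chance alone passes about 1 in 20 such sets. Acsl5 stood at 340.5 CPM in library a of HF WT stem cells, where the other 3 lay between 291 and 293 CPM (gap over range 0.953). Acsl5 also stood at 266 CPM in library c of HF KO stem cells, where the other 3 lay between 303 and 307 CPM (gap over range 0.895).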

How the results depend on the processing

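No paired analysis was possible because the columns carry no replicate number; sex, read from Xist and Ddx3y, was fitted as a covariate. Of 977 values of the 10 genes under other settings, 937 stayed on the same side of the threshold, 13 lost and 27 gained a call, and 0 called values changed sign. With DESeq2 the genes called among the 10 numbered 4, 3 and 2 in stem cells (diet in WT, diet in KO, genotype on HF) and 3, 3, 3 and 1 in progenitors (the same, then genotype on HFC). Over all genes DESeq2 called 180, 43, 105 and 60 in stem cells and 44, 118, 190 and 83 in progenitors, where edgeR called 31, 8, 55 and 30, and 11, 39, 88 and 32, and DESeq2 called 1 and 2 for the differences between populations in diet in WT and genotype on HFC. With limma 2 of the 10 were called for diet in KO in each population. In progenitors it called 0 of the 10 for genotype on HF and 1 for genotype on HFC. Its counts over all genes for those comparisons are not given here. It called 19 genes of all for diet in WT stem cells, and its median log2 difference of stem cells over progenitors over all genes was 0.267. Without the filter 56 and 22 genes were called for diet in WT and in KO stem cells and 18 and 67 in progenitors, and 0 of the 10 for genotype on HFC in stem cells. The Xist covariate gave 56 genes for diet in WT stem cells and 7 in WT progenitors. The enterocyte covariate gave 8 genes (diet in WT stem cells), 30 (genotype on HF, stem cells), 0 (diet in WT progenitors), 65 (diet in KO progenitors) and 3444 (stem cells over progenitors). Of the 10 it called 0 for genotype on HFC in stem cells, and in progenitors 0, 3, 2 and 1. Its counts over all genes for genotype on HFC in stem cells and for genotype on either diet in progenitors are not given here. The compared groups alone gave 2, 18 and 25 genes in stem cells and 4 for diet in WT progenitors, and of the 10 they called 0, 2 and 0 (diet in WT, diet in KO, genotype on HFC) in stem cells and 0 for diet in WT progenitors. Leaving out 1 library each moved the count over all genes between 5 and 25, 0 and 14, 30 and 81, and 14 and 33 in stem cells, between 0 and 16, 16 and 84, 35 and 90, and 17 and 49 in progenitors, and between 8198 and 8577 for stem cells over progenitors. The interaction in progenitors gave 0 to 1. The number called among the 10 then ran from 1 to 2 for genotype on HF in stem cells, stayed at 1 for diet in WT stem cells at 10 for stem cells over progenitors and at 0 for the interactions and the differences between populations, and ran from 0 to 1 for the other 6 comparisons. The causes were not tested. With 4 libraries a group and counts of 0 to 74 for Cd36 and 4 to 54 for Acsl4, changes of these genes below several-fold may go undetected.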

Other observations

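For each gene the non-members with the most similar profile were sought among 9636 genes with a mean log2 CPM of at least 3, by Pearson's r over the 8 group means. The means share libraries, scaling and the split into 4 stem cell and 4 progenitor groups, so that the values describe profiles and nothing more. Nearest to Fabp1 were Tbl2 (0.973), Naa50 (0.971) and Abce1 (0.964), and nearest to Fabp2 were Tm4sf4 (0.988), Usp15 (0.985) and Homer2 (0.984). Nearest to Acsl3 were Nae1 (0.979), Crot (0.978), which encodes the peroxisomal carnitine octanoyltransferase, and Rgn (0.975). Slc27a4 lay nearest to Akr1c19 (0.987), Tulp4 (0.986) and Ces2c (0.984), the last a carboxylesterase. Between members, r was 0.919 for Fabp1 and Fabp2 and 0.965 for Fabp2 and Slc27a4.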
